A study of Mus musculus with 2 samples.

Results

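Basophils and mast cells are rare granule-bearing leukocytes that store proteases and histamine. This account follows 9 of their genes in cells sorted as lymph node stroma, with and without a draining tumor. The genes fall into basophil proteases (Mcpt8, Prss34), mast cell proteases (Cma1, Mcpt4, Tpsb2) and effector genes used by both cell types (Cpa3, Ms4a2, Hdc, Hpgds). Some of the effector genes are also made by other leukocytes. All 9 genes were found on both arrays by gene name, with every non-control probe of each gene kept. This gave 13 of 56605 probes and 9 of 37008 gene names, and no probe carried an older alias of these genes. The genes were selected on the measured difference between the tumor-draining and the normal array, so their differences describe these 2 samples and support no test.

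The study placed 1 sample in each of 2 groups. The normal sample came from lymph nodes of female C57BL/6 mice without a tumor. The tumor-draining sample came from female C57BL/6 mice inoculated in the mammary gland with the mammary carcinoma line 4T1, and its nodes were taken 2 weeks later. 4T1 derives from BALB/c mice, so a strain mismatch with the host and other effects of the tumor cannot be told apart. Cells lacking surface CD45, the leukocyte antigen encoded by Ptprc, were sorted from both, and the labels call them stromal cells. The age of the mice, and how many contributed to each sample, are not given in the sources used here. Total RNA was amplified, labeled with Cy3 and read on a single-color Agilent mouse array. No group has a second array, so no difference has a replicate check or a p-value, and precision is limited by the number of arrays.

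Mouse basophils are recognized by the protease Mcpt8 and by the tryptase Prss34, which sits in the tryptase cluster but is made mainly by basophils. Connective tissue mast cells store the chymases Cma1 and Mcpt4 and the tryptase Tpsb2 in granules, bound to the heparin chains of the proteoglycan serglycin. Both cell types display the high-affinity IgE receptor, whose crosslinking releases histamine and starts the synthesis of lipid mediators. Both also carry CD45 on their surface, so a sort for cells without CD45 is designed to leave them out.

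A probe reports a gene only through the stretch it was built on, and the proteases belong to families of related genes. The first 30 of the 60 bases are shown for the protease probes on which the basophil and mast cell comparison rests, with the mm9 position and strand of the whole probe. Mcpt8 lies at chr14:56701075-56701134 on the minus strand, Cma1 at chr14:56560454-56560513 on the minus strand and Mcpt4 at chr14:56678589-56678648 on the minus strand. Prss34 lies at chr17:25436942-25437001 and Tpsb2 at chr17:25504819-25504878, both on the plus strand.
Mcpt8: gctttatgccttggattcggaaaacaatga
Prss34: tcttaaacctccctattctatggtagtgaa
Cma1: ataagatcttgagggagaattaactctgga
Mcpt4: tgaaagatgaattctgtgatgatggactgt
Tpsb2: gggctgtgctgtctttaactcactgcttcc
The full probes of 17 proteases of the same clusters (18 probes, 152 pairs of probes from different genes) were compared without gaps over at least 20 bases. The most alike pair, Ctsg and Mcpt8, shared 27 identical bases of 60. The Prss34 and Tpsb2 probes shared 24, and those of Prss34 and Mcpt8 shared 23. The files do not state exon or UTR, and each of these probes is one block of 60 bases on the genome.

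Values below are the background-subtracted signals of the scanner software, in intensity units. A log2 difference is the tumor-draining value minus the normal value after each array was scaled to the 75th percentile of its non-control spots, and a fold change is read on that scaled signal. A gene is called higher or lower where the difference reached 2-fold. Where only 1 array was well above background, the fold is a lower bound set against the lowest signal that counted as above background on the other array. If the measured signal on that other array was higher than this lowest signal, the measured signal was used instead.

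The samples differed broadly in the signals of cell type markers. At the brightest probe of each gene, all 9 fibroblastic reticular markers and all 9 endothelial markers fell by 2-fold or more with the tumor. Their median log2 differences were -1.96 and -2.87, and all were detected above background in both samples. Other probes of Col1a1 lay between -2.06 and 0.86, and other probes of Col1a2 above background were at -0.97 and -0.35. All 8 pan-leukocyte and all 8 T cell markers were higher by 2-fold or more (medians 1.87 and 2.31). Ptprc itself had a signal of 3702 in the normal and 17432 in the tumor-draining sample. Over the 24677 genes measured above background in either sample the median was 0.10. Scaling to 8 spike-in probes instead adds 0.85 to every difference, which takes that median to 0.95, so a difference between -0.85 and 0 changes sign under it, and genes called lower by less than that shift beyond 2-fold lose the call. In such sorted samples fewer cells of a type and less RNA per cell cannot be told apart.

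Both basophil proteases were higher on the tumor-draining array. Mcpt8, a granule protease on which basophil reporter mice are built, had a signal of 103 in the normal and 662 in the tumor-draining sample. That is a log2 difference of 2.75, or 6.73-fold. Of the 22179 genes above background in both samples, 172 (0.776%) had a higher difference. Prss34, a tryptase-like protease of basophil granules, went from a signal of 46.1 to 199. Its log2 difference was 2.17, or 4.51-fold, and 501 of the 22179 genes (2.26%) had a higher one. Because both genes were selected on this difference, these ranks are no test. Each gene has 1 probe, so neither value could be set beside a neighboring probe. Normexp background correction, which compresses dim signals, gave 1.29 for Prss34 and 2.17 for Mcpt8, both still past 2-fold.

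None of the 3 mast cell proteases differed by 2-fold. Cma1, a chymase of mouse connective tissue mast cells, had a signal of 201 in the normal and 170 in the tumor-draining sample. Mcpt4, the other chymase of the 3, had 533 and 489. Tpsb2, the main secreted mast cell tryptase of the mouse, had 209 and 143. Their log2 differences were -0.18, -0.06 and -0.49, all slightly lower on the tumor-draining array, and all 3 turned positive under spike-in scaling, at 0.67, 0.79 and 0.36. All 3 were well above background in the normal sample, from mice without a tumor.

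**Figure D1:**
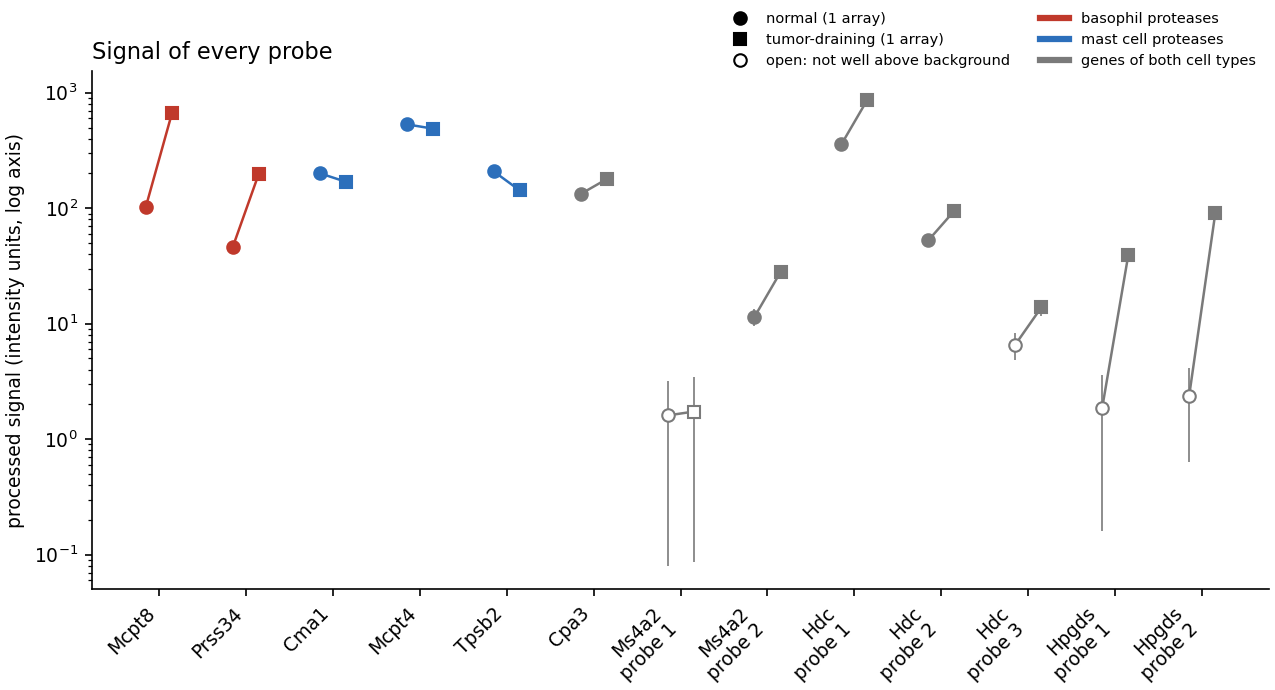
Processed signal of all 13 probes on a log axis in intensity units, with circles for the normal array, squares for the tumor-draining array and a line joining the values of a probe. Vertical lines are the scanner software's error for a spot and open symbols are signals not well above background. The Mcpt8, Prss34 and Hpgds lines climb, while those of Cma1, Mcpt4 and Tpsb2 run nearly level or fall slightly.

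The effector genes of both cell types were mixed. Cpa3, a carboxypeptidase stored with the proteases by mast cells and also made by basophils, had a signal of 133 and 179. Its log2 difference of 0.49 did not reach 2-fold, and spike-in scaling took it to 1.34. Its probe lies at chr3:20115674-20115733 on the minus strand in mm9.

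Ms4a2 encodes the beta chain of the IgE receptor, which amplifies its signal. Of its probes, the one at chr19:11690107-11690166 had signals of 11.5 and 28.0, a log2 difference of 1.35. The other, at chr19:11691701-11691760, was not well above background on either array, with signals of 1.61 and 1.73. The gene counted as 2.55-fold higher through its brighter probe only. That call was lost with normexp correction, at 0.37, and with the mean over both probes, at 0.76.

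Hdc, the enzyme that makes histamine from histidine, is also expressed by other myeloid cells. Its 3 probes were all higher on the tumor-draining array. At chr2:126419516-126419575 the signals were 357 and 874, a log2 difference of 1.35. At chr2:126426030-126426089 they were 52.7 and 95.3, a difference of 0.92, which is under 2-fold. The third probe, at chr2:126420357-126420416, was not above background on the normal array (6.59) and reached 13.9 on the tumor-draining array, a bound of at least 1.87-fold.

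Hpgds, the hematopoietic prostaglandin D synthase, was detected above background in the tumor-draining sample alone. The sequence of its first probe is shown because that probe crosses an intron. It covers 60 bases of transcript but spans chr6:65070081-65073609 in mm9, or 3.53 kb, so it matches spliced RNA.
Hpgds: ccttctgaaagatttggacacatacttagg
This probe read 1.88 in the normal sample, not above background, and 39.5 in the tumor-draining one, at least 5.33-fold higher. The other probe, at chr6:65080760-65080819 and built on a predicted transcript model, had 2.39 and 90.4, at least 12.2-fold higher. The measured scaled log2 values of that probe were -7.29 and -1.99, the first of them not above background and therefore replaced in the bound. Normexp correction of the same probe gave a log2 difference of 1.30, so the size of this difference depends on how a signal near background is treated.

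Of the 9 genes, 5 reached 2-fold higher (Mcpt8, Prss34, Ms4a2, Hdc, Hpgds), 0 were lower and 4 lay within 2-fold. Among all 24677 genes measured, 11.5% reached 2-fold higher and 16.5% reached 2-fold lower. Since the genes were selected on this same contrast, nothing is read from their share. With normexp correction 5.63% of all genes were higher, along with 4 of the 9. With spike-in scaling 47.3% were higher, along with 6 of the 9, Cpa3 joining the others. Each of the 9 was above background in some sample, and 8 in both.

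The basophil proteases had a median log2 difference of 2.46 and the mast cell proteases -0.18, a gap of 2.65 that scaling a whole array by a constant leaves as it is. With normexp correction the medians were 1.73 and -0.10. The smaller basophil value exceeded the highest mast cell value by 2.24. Replicate error can be read only between spots of the same probe, and for probes with a mean signal of 100 to 1000 the SD of the log2 difference had a median of 0.09 over 11 probes. For signals of 30 to 100 it was 0.18 over 5 probes, and for 8 to 30 it was 0.27 over 2 probes. Different probes of a gene had a median SD of 0.27 across 7599 genes of any signal. That is more than between spots of brighter probes and about the same as for signals of 8 to 30. The gap between the protease groups is larger than either spread, while the differences of Cma1 and Mcpt4 lie within the spread between probes. The genes were selected on this contrast, so the size of the gap beside these spreads is no test. Neither spread includes variation between mice or sorts.

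**Figure D2:**
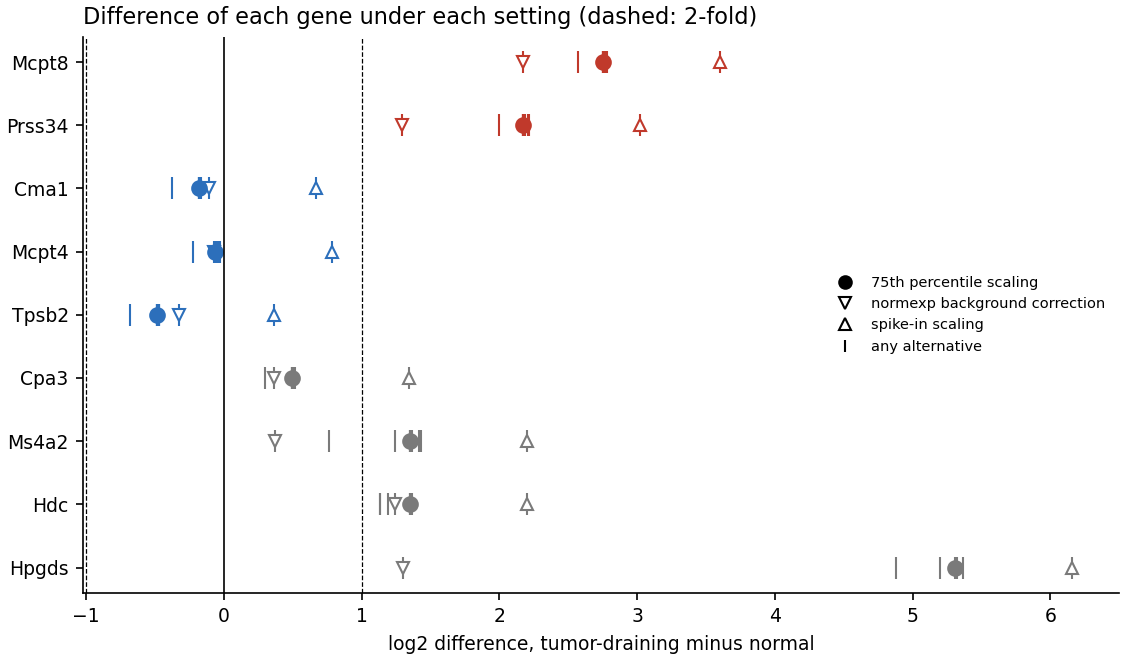
Log2 difference, tumor-draining minus normal, of each gene under the 75th percentile scaling (filled circle) and under each alternative (ticks, with triangles for normexp correction and spike-in scaling). Dashed lines mark 2-fold. Mcpt8 stays between 2.17 and 3.60 and Prss34 between 1.29 and 3.02, to the right of Cma1, Mcpt4 and Tpsb2, which lie between -0.68 and 0.79.

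The proteases sit in dense gene clusters, so the values of each gene's neighbors are set beside it. The chymase cluster on chromosome 14 held 18 probes over 317 kb. Of these, 9 were above background on both arrays and 9 on neither. Mcpt8 and Mcpt4 are 22.5 kb apart, with differences of 2.75 and -0.06. On the other side of Mcpt8, 17.7 kb away, lies Ctsg, cathepsin G, a protease of neutrophil and mast cell granules, with signals of 503 and 1446, a log2 difference of 1.58. Gzmb, granzyme B of cytotoxic lymphocytes, lies 177 kb from Mcpt8 and had 66.6 and 377, or 5.91-fold higher. An unnamed transcript beside it was also higher, at 1401 and 2782, while Gzmc, another granzyme, had 49.5 and 85.6 and did not reach 2-fold.

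At the far end of the cluster, Cma1 (141 kb from Mcpt8), the pseudogene Mcpt-ps1 and the chymase Cma2 all lay within 2-fold. Mcpt-ps1 had signals of 222 and 257, and Cma2 had 251 and 315. The mucosal mast cell proteases Mcpt1 and Mcpt2 were not above background on either array, nor was Mcpt9. Other granzymes of the cluster (Gzmd, Gzme, Gzmf, Gzmg, Gzmn) were also not above background. In all, 4 probes of the chymase cluster were at least 2-fold higher and 0 lower.

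The tryptase cluster on chromosome 17 held 7 probes of 6 genes over 74.3 kb, of which 4 were above background on both arrays. Prss34, itself selected on this difference, was the 1 gene at least 2-fold higher there, and 0 were lower. Its neighbor Prss28, a tryptase-family serine protease 11.8 kb away, had signals of 47.8 and 53.0. Prss29, of the same family, was above background in the tumor-draining sample alone, at 8.56. Tpsab1, the mast cell tryptase paired with Tpsb2, was dim on both arrays at 8.77 and 9.69. Tpsg1, a membrane-anchored tryptase, had 10.1 on the normal array and was not above background on the other. Prss30, a further member of the family, was above background on neither array, and Mcpt10 had no probe.

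**Figure D3:**
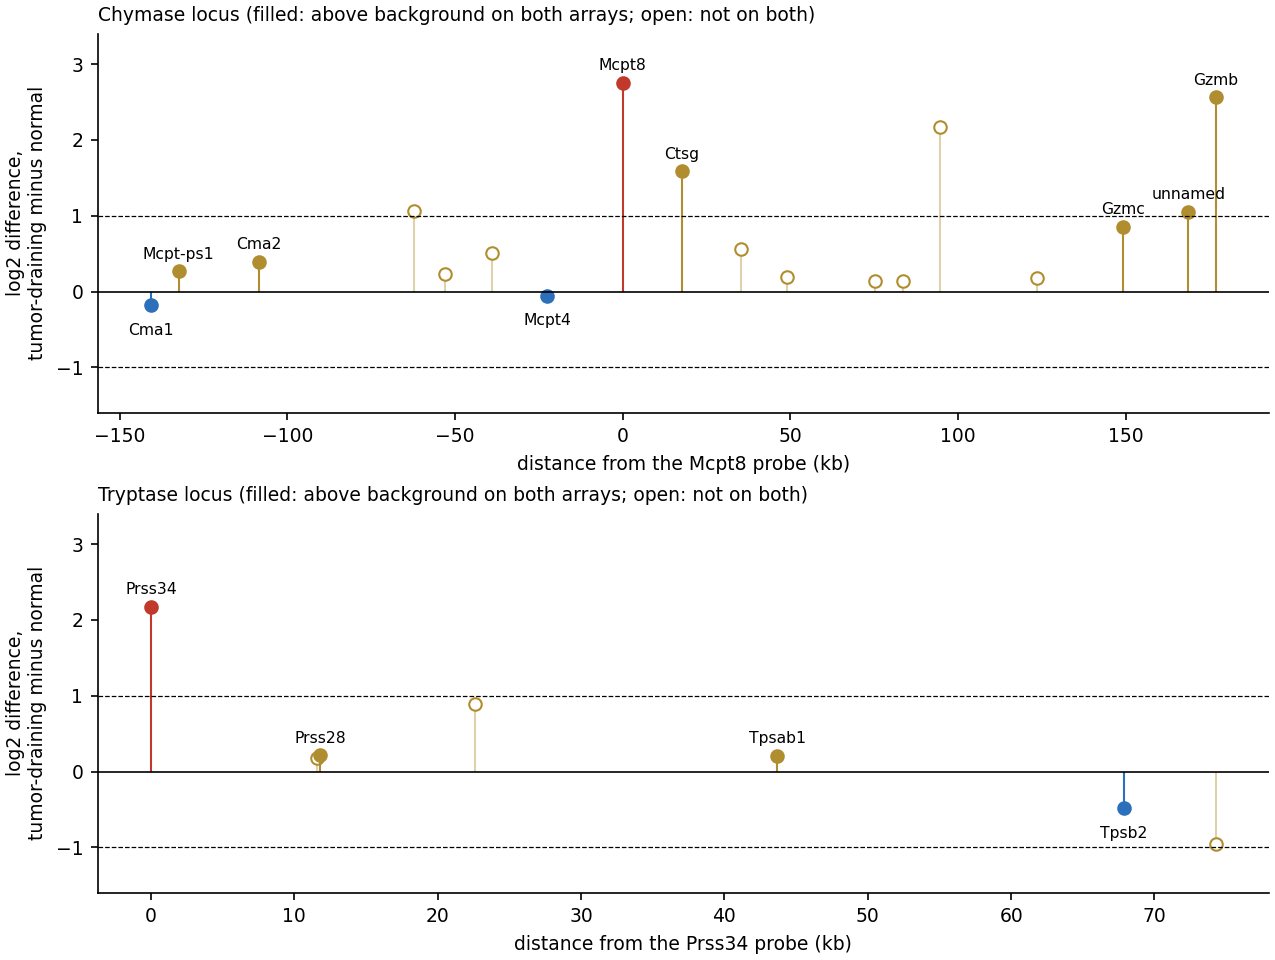
Log2 difference, tumor-draining minus normal, of each probe against its distance in kb from the Mcpt8 probe (upper panel) or the Prss34 probe (lower panel). Filled points were above background on both arrays, open points were not, and dashed lines mark 2-fold. Mcpt8 (2.75) lies between Mcpt4 (-0.06) and Ctsg (1.58), and Prss34 (2.17) has its nearest neighbor Prss28 at 0.21. Ctsg and Gzmb are the other named filled points above 2-fold.

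Promoters of genes within and past 2-fold are shown so that their sequence can be set beside the values. RefSeq sequence of GRCm38.p6 was at hand for 8 of the 9 genes, all but Tpsb2, as the 250 bases before the transcription start. GATAA, the core that GATA factors bind, was searched on both strands, along with TGTGGT, bound by RUNX factors, and TTGCNNAA, bound by C/EBP factors. These families act in basophil and mast cell development. The promoters of Mcpt8, Mcpt4, Prss34 and Cpa3 are shown, 5′ to 3′ on the gene's strand, with GATAA in capitals. They lie at chr14:56085198-56085447 (minus), chr14:56062311-56062560 (minus), chr17:25298144-25298393 (plus) and chr3:20242182-20242431 (minus).
Mcpt8: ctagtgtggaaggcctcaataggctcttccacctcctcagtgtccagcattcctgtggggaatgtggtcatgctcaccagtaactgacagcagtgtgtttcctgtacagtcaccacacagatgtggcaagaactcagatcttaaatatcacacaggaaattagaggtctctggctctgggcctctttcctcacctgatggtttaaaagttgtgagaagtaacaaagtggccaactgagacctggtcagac
Mcpt4: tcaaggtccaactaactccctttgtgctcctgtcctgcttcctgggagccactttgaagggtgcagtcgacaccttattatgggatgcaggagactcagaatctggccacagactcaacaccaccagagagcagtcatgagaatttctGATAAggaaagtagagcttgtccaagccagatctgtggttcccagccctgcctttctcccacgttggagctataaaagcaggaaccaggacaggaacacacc
Prss34: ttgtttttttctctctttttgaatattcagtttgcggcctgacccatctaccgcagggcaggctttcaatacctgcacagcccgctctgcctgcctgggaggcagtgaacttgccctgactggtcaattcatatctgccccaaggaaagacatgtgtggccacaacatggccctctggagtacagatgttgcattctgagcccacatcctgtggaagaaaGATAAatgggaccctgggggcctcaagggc
Cpa3: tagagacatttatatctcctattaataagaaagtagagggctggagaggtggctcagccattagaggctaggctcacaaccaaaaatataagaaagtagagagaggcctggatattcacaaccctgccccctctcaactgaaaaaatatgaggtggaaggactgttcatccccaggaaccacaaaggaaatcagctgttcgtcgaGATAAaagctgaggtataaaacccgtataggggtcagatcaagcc
GATAA or its complement was in 5 of the 8 promoters, against 22.6% of 32851 promoters. It began 30 bases before the start of Prss34, 45 before Cpa3, 102 before Mcpt4 and 194 before Cma1, and Ms4a2 held 3 matches at 224, 37 and 10 bases. Mcpt8, Hdc and Hpgds had none in this window. TGTGGT was in 4 of the 8, against 4614 of the 32851 promoters, with 2 matches in Mcpt8 at 188 and 139 bases and 1 each in Mcpt4 (69 bases), Cpa3 (73) and Hpgds (250). TTGCNNAA was in Hpgds only, at 176 bases, against 9.56% of promoters. Prss34 and Mcpt4 both held GATAA, with differences of 2.17 and -0.06. Such matches describe letters and show no binding.

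Over all pathway and marker lists, 101 genes outside the 9 were called in either direction, and normexp correction, tried for them after the data had been seen, took 24 of these under 2-fold and turned the sign of 0. Among genes of the IgE receptor and its proximal signaling, 7 of 15 were higher, 1 was lower and 7 lay within 2-fold. All 15 were above background in both samples, and their median difference was 0.995. Fcer1a, the IgE-binding alpha chain found on basophils and mast cells, had signals of 13.0 and 29.9, a difference of 1.26 that fell under 2-fold, to 0.35, with normexp correction. Fcer1g, the gamma chain that many myeloid Fc receptors share, had 608 and 1110, a difference of 0.93. Lat2, an adaptor of mast cells and B cells, had the highest difference at 2.52, and its relative Lat, the adaptor of T cells and mast cells, 2.38. Gab2, a scaffold of the receptor's PI3-kinase branch, was lower, from 246 to 58.2. Most of these signaling genes also act in lymphocytes, whose markers were higher on the same array, and their part in the result was not tested.

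Around Hdc, the histamine genes went both ways. Of 8 genes 7 were above background, 2 higher, 3 lower and 2 within 2-fold. Their median was -0.20, or 0.26 over the 6 genes above background in both samples, so its sign depends on that choice. Slc18a2, the vesicular transporter that loads histamine into granules, had signals of 37.8 and 59.7 and did not reach 2-fold. Aoc1, the extracellular diamine oxidase that degrades histamine, had 11.4 and 23.3, a difference of 1.09 (0.25 with normexp correction). Hnmt, the enzyme that inactivates histamine inside cells, had a signal of 193 in the normal sample and was 4.12-fold lower, a difference of -2.04. Slc22a3, an organic cation transporter that takes up histamine, had the lowest difference of those measured on both arrays at -2.89, and Hrh1, a histamine receptor present on endothelium, was at least 4.01-fold lower. Normexp correction took Aoc1, Hrh1 and Hrh4 under 2-fold.

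Around Hpgds, the prostaglandin D2 genes were mostly lower. Of 8 genes 7 were above background, with 5 at least 2-fold lower, 1 higher and 1 within 2-fold, and a median of -1.83. Ptgs1 and Ptgs2, the cyclooxygenases that supply the substrate of Hpgds, had differences of -2.76 and -1.94. Ptgs1 went from a signal of 558 to 79.1 and Ptgs2 from 957 to 239. Ptgds, the lipocalin-type synthase that makes the same product as Hpgds, went from 108 to 29.3, a difference of -1.83. Ptgdr2, the prostaglandin D2 receptor of basophils, eosinophils and type 2 lymphocytes, was at least 2.03-fold higher, at 7.90 (not above background) and 15.3. Normexp correction took Ptgds and Ptgdr2 under 2-fold. Akr1b3, an aldo-keto reductase that can act on prostaglandins, had the highest difference of those measured on both arrays at 0.63.

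The leukotriene C4 genes were divided. Alox5ap, the protein that presents arachidonate to 5-lipoxygenase, had the highest difference at 1.42, and Alox5, the lipoxygenase itself, had 1.37. Alox5 and the receptor Cysltr2 fell under 2-fold with normexp correction. Ltc4s, which completes leukotriene C4, was lower at -1.80. Of the 5 genes 3 were higher, 1 lower and 1 within 2-fold, with a median of 1.07.

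Granule genes were divided as well, with 4 of 10 higher, 3 lower and 3 within 2-fold and a median of 0.34. Ctsc, cathepsin C, which activates granule chymases and granzymes by trimming their propeptide, had the highest difference at 1.54, from a signal of 584 to 1622. Srgn, the serglycin core protein of granules in many leukocytes, was 2.46-fold higher, from 8866 to 20876. Ndst2, the sulfotransferase needed for mast cell heparin, had 302 and 318, a difference of 0.13. Cd63, a granule membrane protein that also occurs in lysosomes of most cells, had the lowest difference at -1.46. Rab27a, a granule transport GTPase, and Ext1, a heparan sulfate polymerase, lost their calls with normexp correction.

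Of 13 growth factors and receptors of both lineages 12 were above background, with 6 lower, 3 higher and 3 within 2-fold, and a median of -1.07. Il3, the T cell cytokine that expands basophils, was above background in the tumor-draining sample alone, at 4.61 and 23.2, at least 3.13-fold higher. Another Il3 probe, on the same transcript, was above background on neither array, at 1.60 and 2.27. Il3ra, its receptor chain, which endothelium also expresses, went from 2612 to 937, a difference of -1.42. Kitl, the stromal ligand on which mast cells depend, went from 818 to 154, a difference of -2.35, and its 3 probes lay between -2.42 and -2.28. Kit, the receptor for it, had 436 and 288 at its brightest probe, a difference of -0.53 that turned to 0.32 under spike-in scaling. The other probes of Kit, dimmer but above background on both arrays, gave 0.13 and -0.14. Of those measured on both arrays, Il33, an alarmin of stromal cells, had the lowest difference at -3.08, and Il9r, the interleukin 9 receptor, the highest at 1.34. All 3 higher calls of this list (Il3, Il9r and Il1rl1, a receptor chain for Il33) fell under 2-fold with normexp correction. The probes of Il1rl1 also disagreed in sign. Its brightest probe, which gave the call, went from 174 to 389. Another, built on a different transcript of the gene, went from 68.4 to 17.5, a difference of -1.91. The third, built on the same transcript as the brightest, was above background in the tumor-draining sample alone, at 11.3.

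Transcription factors of the lineages also went both ways, with 3 of 10 higher, 4 lower and 3 within 2-fold and a median of 0.32. Gata2, required by basophils and mast cells and also active in endothelium, went from 276 to 112, a difference of -1.24. Spi1, a myeloid and B cell factor, had the highest difference at 1.47 and Tal1, which is also active in endothelium, the lowest at -2.59. Gata1, Gata2 and Spi1 fell under 2-fold with normexp correction. Among 5 type 2 and mast cell cytokines, 4 were above background, 1 higher, 1 lower and 2 within 2-fold. Il4, a cytokine of basophils and of T cells, had the highest difference at 3.25, from a signal of 38.7 to 352. Il6, which fibroblasts make as well, had the lowest at -2.73.

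**Figure D4:**
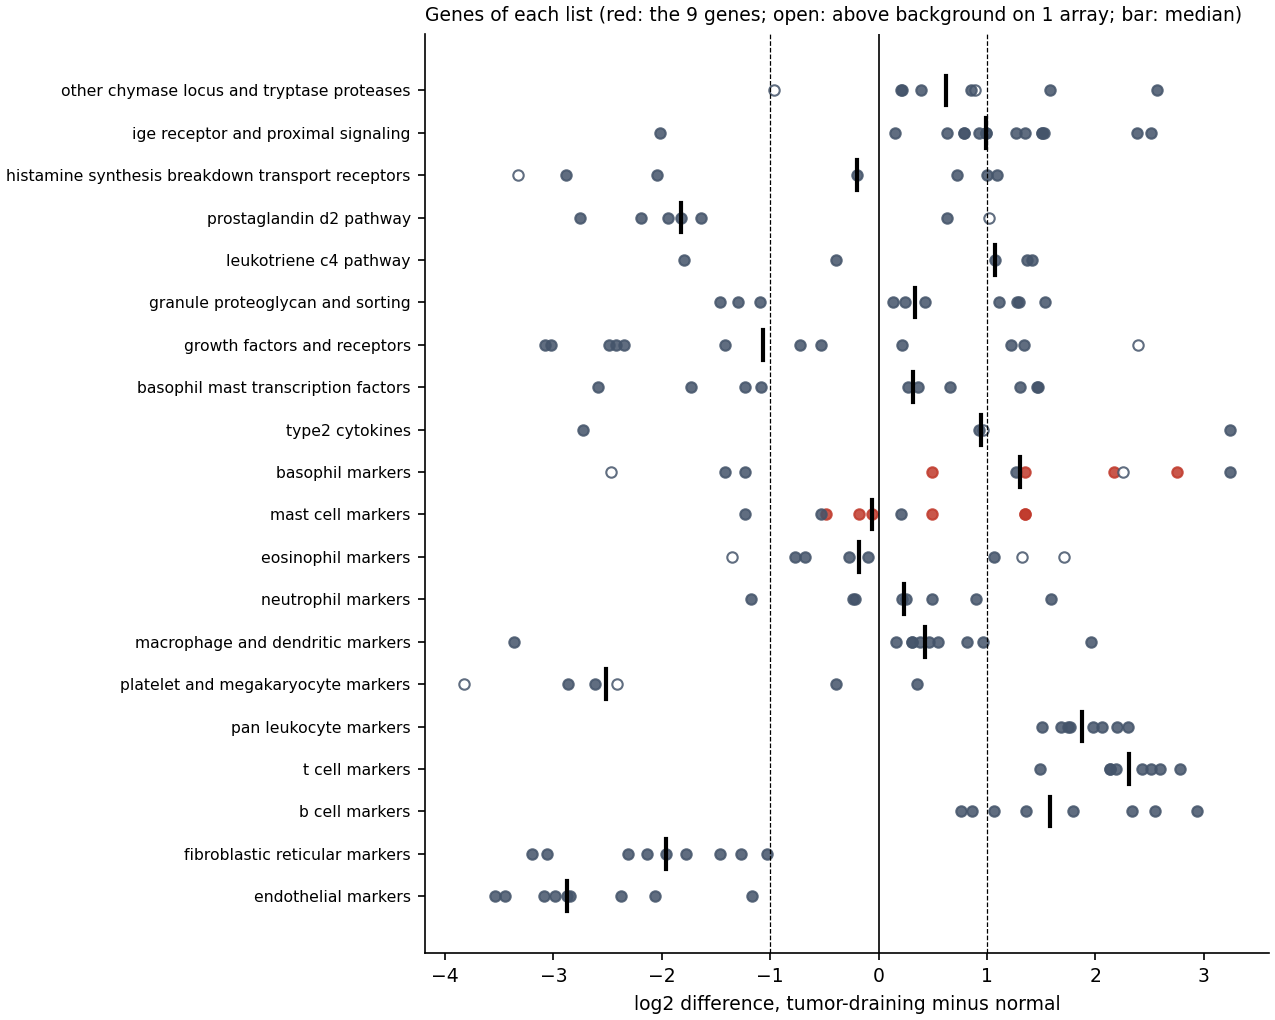
Log2 difference, tumor-draining minus normal, of the genes of 9 pathway lists and 11 cell type marker lists, with a bar at each list's median. Red points are the 9 genes where a list holds them, open points were above background on 1 array only, and dashed lines mark 2-fold. Pan-leukocyte and T cell markers lie to the right (medians 1.87 and 2.31), reticular and endothelial markers to the left (-1.96 and -2.87), and the mast cell list is centered near 0 (-0.06).

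Other basophil and mast cell markers differed in both directions. Of 10 basophil markers 5 were higher, 3 lower and 2 within 2-fold. Without Mcpt8, Prss34, Ms4a2 and Cpa3, 6 remained, with 2 higher, 3 lower and a median of 0.01. The higher ones were Fcer1a and Il4, and the lower ones Il3ra, Gata2 and Itga2, an integrin chain that platelets and natural killer cells also carry. With normexp correction Il4 and Il3ra kept their calls and Fcer1a, Gata2 and Itga2 lost theirs. Spike-in scaling took Il3ra to -0.57 and Gata2 to -0.39, both under 2-fold, and Itga2 to -1.62, so the lower calls depend on the scaling. Cd200r3, a receptor of basophils and mast cells, was above background in the tumor-draining sample alone, with 2.19 in the normal sample, and was at least 1.35-fold higher. These values are from its brightest probe, and its other probes were above background on neither array. Of the 5 mast cell markers outside the 9 genes, Mrgprb1 and Mrgprb2, the latter a receptor of connective tissue mast cells, were not above background on either array. Of the other 3, Gata2 was lower and Kit and Tpsab1 lay within 2-fold, with a median of -0.53 that is positive under spike-in scaling. That median is the value of the brightest Kit probe.

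Markers of other leukocytes were higher along with the basophil proteases. The 8 pan-leukocyte markers had differences of 1.51 to 2.30, with a summed signal of 32399 on the normal and 115660 on the tumor-draining array. The T cell markers ran from 1.49 to 2.78 (8 of 8 higher, summed signal 13943 and 62785) and the B cell markers from 0.76 to 2.94 (6 of 8 higher, 25861 and 58280). The difference of Mcpt8, 2.75, lay above the pan-leukocyte range and within that of the T cell markers, and that of Prss34, 2.17, lay within both. All of these lymphoid and pan-leukocyte markers were above background on both arrays. Their part in the differences of the 9 genes was not tested.

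Granulocyte markers outside the basophil lineage differed less. Of 8 neutrophil markers 1 was higher (Mmp8) and 1 lower (Camp), with a median of 0.24 and a summed signal of 36756 and 38963. Of 8 eosinophil markers 3 were higher (Siglecf, Ccr3, Il5ra) and 1 lower (Epx), with a median of -0.18, positive under spike-in scaling, and a summed signal of 663 and 565. All 4 of these eosinophil calls were dim and fell under 2-fold with normexp correction, at 0.25, 0.34, 0.62 and -0.18, as did that of Mmp8. Prg2, the major basic protein of eosinophil granules, had 242 and 145. Of 11 macrophage and dendritic markers 10 were above background, with 1 higher (Flt3, 1.96), 1 lower (Marco, -3.36) and a median of 0.43. Their summed signal of 8317 and 2923 is mostly that of Marco, a scavenger receptor, at 6909 and 643. Of 6 platelet and megakaryocyte markers 0 were higher and 3 lower, with a summed signal of 1424 and 213. The part of these cells in the differences of Hdc and Hpgds was not tested.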

How the data were processed

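RNA of 2 samples was read on single-color Agilent arrays. The deposited scanner files hold intensity values with background subtracted by Feature Extraction 12.0.3.1 (protocol GE1_1200_Jun14), with probe positions in mm9, per the file headers. Version 10.7 and limma are named in the submitters' processing notes. The authors' deposited table holds log2 values (column medians 4.85 and 4.86, not centered by gene), and its steps are not given in the sources used here. It served as an alternative.

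The main value was the log2 processed signal minus the 75th percentile of the array's 59305 non-control spots, without outlier spots. A gene took its brightest probe. Above background follows the software's flag on at least 50% of a probe's spots. No non-control spot was saturated. Probes were named through RefSeq accessions (32994), symbols (10224) or synonyms (520), or kept the file's name (12867). All 9 genes and the other list genes were described. From each list the highest and lowest difference, the highest bounds and direct partners of the 9 were named; names beyond these were chosen after their values were seen. The members and lists were chosen with earlier results of these data known. Alternatives were normexp (offset 50), quantile, loess (span 0.3), spike-in and median scaling, probe means and background filters. Software was R 4.3.3 (limma 3.58.1) and Python 3.11.15 (pandas 2.3.3, numpy 2.4.6).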

Additional observations from a re-analysis of the deposited data

How the results depend on the processing

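Over 10 alternatives, between 4 and 6 of the 9 genes were at least 2-fold higher and 0 were lower. The count of 4 came from normexp correction and the mean over all probes, each of which lost Ms4a2, and from settings that use only signals above background on both arrays, which leave out Hpgds by construction. The count of 6 came from spike-in scaling. Normexp correction gave a median of 1.73 for the basophil proteases and 0.81 for the shared effector genes. Spike-in scaling gave 3.31 for the basophil proteases, 0.67 for the mast cell proteases and 2.20 for the shared effector genes. The mean over all probes gave 0.95 for the shared effector genes. Of 88 alternative values of single genes, 73 moved by less than the spread between probes and 15 by more. No paired analysis was possible because each group has 1 sample. Signals near background limit Ms4a2, Hpgds and the third Hdc probe. The amounts of spike-in RNA added to each sample are not known here.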
